A study of Bos taurus with 64 samples.

Results

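The breed by diet interaction asks whether the muscle microRNAs (miRNAs) of a dairy breed and a beef breed differ in how their levels change between 2 diets. It is the concentrate minus grass difference in Holstein-Friesian steers less the same difference in Charolais steers, averaged over feed-efficiency classes. Every miRNA that passed a filter on low counts was included: 318 of the 1030 names in the table, of which 803 were above 0 in at least 1 library. All 64 skeletal muscle libraries were used.

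Charolais is a beef breed and Holstein-Friesian a dairy breed. In each breed, steers of low and of high residual feed intake (RFI) were sampled at the end of each of 2 consecutive feeding phases of 70 days with 14 days of acclimatisation between them. RFI is the feed an animal eats above or below that predicted for its size and growth, and a low value marks an efficient animal. The steers ate zero-grazed fresh ryegrass in the earlier phase, and a concentrate of 86% rolled barley with restricted grass silage in the later phase. The groups, with 8 libraries each, were low-RFI and high-RFI Charolais on grass, the same 2 classes of Charolais on concentrate, and the 4 matching groups of Holstein-Friesian. A breed on a diet therefore had 16 libraries. The 64 libraries came from 59 steers, of which 4 Charolais and 1 Holstein-Friesian gave a library in both phases. Of these, 1 Charolais steer was labelled high RFI on grass and low RFI on concentrate. Concentrate cannot be told apart from the later phase or from the greater age of the steers, in either breed. Ages are not stated in the labels.

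A miRNA is a short RNA that guides the RNA-induced silencing complex to messenger RNAs with a matching site, lowering their translation or stability. Muscle fibres are rich in the myomiRs, such as miR-1 and miR-133a, which promote or restrain the differentiation of muscle precursors. Other miRNAs of a muscle sample come from fibroblasts, vessels, nerves and blood, so a bulk level mixes cell types.

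A library held between 4795936 and 12245099 counts, the median being 8143016. The muscle label was checked against the 8 myomiRs, which were all detected. They summed to between 87916 and 333487 CPM (counts scaled to a common library size), where library sizes were scaled by trimmed mean of M-values (TMM) factors. The most abundant of them were miR-486 and miR-133a, while miR-1 spanned 106 to 438 CPM. Of the 6 names on the epithelium list, 1 passed the filter on low counts, miR-141, with at most 17.6 CPM in any library. miR-10b took 19.3% of the counts in high-RFI Holstein-Friesian grass replicate 1 and 33.5% in low-RFI Charolais grass replicate 5, against a median of 56.6% over all libraries. These 2 libraries had the highest TMM factors, 2.43 and 1.88.

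The change with diet differed between the breeds in 11 miRNAs, or 3.46% of those tested (edgeR quasi-likelihood test, Benjamini-Hochberg adjusted p under 0.05). In 7 of them (2.20% of those tested) the Holstein-Friesian difference lay above the Charolais one: miR-423-3p, miR-378b, miR-365-3p, miR-331-3p, miR-2285ba, miR-378d and miR-1. In 4 (1.26%) it lay below: miR-380-3p, miR-152, miR-21-5p and miR-376b. The sizes ran from 0.50 for miR-423-3p to 1.01 for miR-2285ba among the former, and from -0.83 for miR-380-3p to -1.08 for miR-152 among the latter, on the log2 scale. At an unadjusted p under 0.05 there were 63 miRNAs.

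The calls depended on how libraries were scaled. With each library scaled to its total count in place of TMM factors, 1 miRNA was called, miR-152, and the median interaction of all miRNAs moved by -0.12 on the log2 scale. All 11 kept their direction with that scaling and with the other 9 alternatives, and 8 of them stayed called whichever single library was left out. The number of calls ran from 8 to 29 when 1 library was left out, the 29 without low-RFI Holstein-Friesian grass replicate 7.

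**Figure D1:**
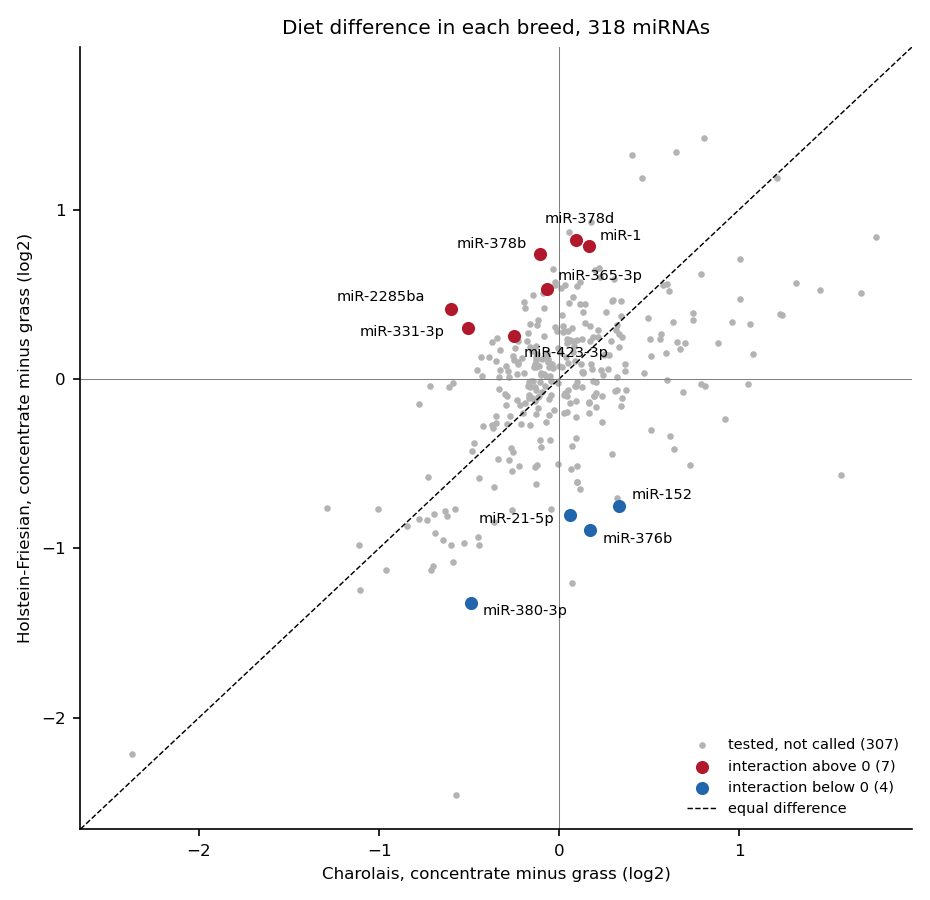
Concentrate minus grass difference on the log2 scale in Charolais (horizontal axis) and in Holstein-Friesian steers (vertical axis), 1 point for each of the 318 miRNAs tested. The dashed line marks an equal difference in both breeds. The 7 miRNAs in red lie above it and the 4 in blue below it, and miR-380-3p is the 1 called miRNA with a negative difference in both breeds.

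Across all 318 miRNAs the interaction had a median of 0.02, with quartiles at -0.29 and 0.24. It was above 0 in 166. The median standard error (SE) of a single interaction was 0.23, and the median size of the estimates, without regard to sign, was 0.27. The diet differences of the breeds, which share no library, had a Pearson correlation of 0.54 and a Spearman correlation of 0.46 across the 318 miRNAs. All points share the scaling and the spread estimate of a joint fit, and miRNAs are not independent replicates.

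The same quantity can be read as a breed difference that depends on the diet. On grass 96 miRNAs differed between the breeds (30.2%), and on concentrate 5 did (1.57%). The spread of the breed difference across miRNAs was 0.43 (SD, log2) on grass and 0.32 on concentrate, while the median SE was 0.16 on both diets. Diet differences numbered 66 in Charolais (20.8%) and 77 in the dairy breed (24.2%). Of the 11 miRNAs called for the interaction, the breed difference was called on grass in 10, all but miR-1, and on concentrate in 0 by edgeR, where 59 of all miRNAs had an unadjusted p under 0.05. In all 11 the breed difference was larger on grass than on concentrate and had the opposite sign there. With total-count scaling 50 miRNAs differed between the breeds on grass, 47 higher and 3 lower in Holstein-Friesian steers, against 47 and 49 with TMM factors. Of the 10, 5 were then still called: miR-152, miR-21-5p, miR-376b, miR-380-3p and miR-2285ba. The diet difference was called in Charolais in 4 of the 11 and in Holstein-Friesian steers in 9. These counts are partly fixed by the choice of members, since an interaction needs unequal differences, and they are given as a description.

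miR-1, miR-378b and miR-378d had their lowest means in Holstein-Friesian steers on grass and their highest in the same breed on concentrate. miR-1 is a myomiR that promotes the differentiation of muscle precursors. It ran from 162 to 301 CPM (median 218) on grass and from 125 to 427 CPM (median 258) on concentrate in Charolais steers. The Holstein-Friesian libraries spanned 106 to 247 CPM (median 186) on grass and 228 to 438 CPM (median 310.3) on concentrate. The ranges of the Holstein-Friesian diets overlapped only between 228 and 247 CPM, while those of the Charolais diets overlapped widely. The mean rose from 185 ± 46.0 to 318 ± 63.4 CPM with concentrate in Holstein-Friesian steers (SD, n = 16 each; log2 0.78 ± 0.13, adjusted p = 2.63e-06 by edgeR), and all 16 concentrate libraries lay above the grass median. In Charolais steers the difference was 0.17 ± 0.13 (adjusted p = 0.373 by edgeR), which did not pass. The interaction was 0.62 ± 0.18 (95% interval 0.25 to 0.98, adjusted p = 0.0373 by edgeR). It had the largest adjusted p of the 11 calls, and the call was lost in 35 of the 64 fits that left out a single library. miR-1 was called in 3 of the 10 alternatives, limma-voom and both fits with the animal as a block, and not by DESeq2 (adjusted p = 0.0546). It was deposited with fractional values, with the same divisor of 2 on both diets.

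miR-378b and miR-378d are relatives of miR-378, which lies within the gene of the mitochondrial coactivator PGC-1 beta and takes part in the control of energy metabolism. In Charolais steers miR-378b spanned 579 to 1251 CPM (median 797) on grass and 393 to 1191 CPM (median 742) on concentrate. In Holstein-Friesian steers it spanned 359 to 844 CPM (median 585) on grass and 608 to 1278 CPM (median 1034) on concentrate. All 16 Holstein-Friesian concentrate libraries lay above the grass median of their breed, and the Charolais diets did not separate. miR-378b was 1.67-fold higher on concentrate in Holstein-Friesian steers (log2 0.74 ± 0.14, adjusted p = 1.64e-05 by edgeR). The Charolais difference was -0.11 ± 0.13 (adjusted p = 0.634, edgeR), and the interaction was 0.84 ± 0.19 (adjusted p = 0.00332, edgeR).

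The less abundant miR-378d spanned 24.7 to 61.6 CPM (median 38.5) on grass and 20.6 to 72.5 CPM (median 40.7) on concentrate in Charolais steers. Its Holstein-Friesian ranges were 14.3 to 43.8 CPM (median 29.6) and 33.0 to 68.2 CPM (median 52.5). It showed the same order of the 4 sets of libraries as miR-1, with an interaction of 0.73 ± 0.21 (adjusted p = 0.0342, edgeR). The call was lost in 43 of the 64 fits that left out a single library. It held in the same 3 of 10 alternatives as that of miR-1, and not by DESeq2 (adjusted p = 0.0576). miR-378 itself, at 18434 CPM the 7th most abundant miRNA, stood at 0.43 ± 0.17 (adjusted p = 0.131, edgeR) and miR-378c at 0.14, and neither passed. Deviations from the group means correlated at 0.91 between miR-378b and miR-378d and at 0.87 between miR-378b and miR-378 over the 64 libraries. miR-378 was deposited with fractional values, with a divisor of 2 on both diets, and miR-378b, miR-378c and miR-378d with whole values. Whether reads were shared between these near-identical names was not tested, so their values may not be separate measurements. The correlation was 0.77 between miR-378d and miR-1.

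Among the 8 myomiRs the interaction was called in miR-1 alone, against 11 (3.46%) of all 318. It was above 0 in 6 and below 0 in 2, with a median of 0.24 against 0.02 for all miRNAs. The most abundant, miR-486 and miR-133a, stood at 0.24 ± 0.19 and 0.39 ± 0.21 (adjusted p = 0.445 and 0.277, edgeR). The slow-fibre miRNAs miR-208b and miR-499, encoded within myosin heavy chain genes, stood at 0.23 and 0.24. miR-206 was at 0.16, miR-133b at -0.02 and the scarce miR-208a at -1.16. The summed level of the 8 spanned 150769 to 333487 CPM (median 200605) in Charolais steers on grass and 150444 to 275052 CPM (median 204955) on concentrate. In Holstein-Friesian steers it spanned 87916 to 237097 CPM (median 155170.0) on grass and 110068 to 242712 CPM (median 173991) on concentrate. The sum was thus lowest in the set of libraries in which miR-1, miR-378b and miR-378d were lowest. In the set in which these were highest, Holstein-Friesian on concentrate, the median of the sum was below both Charolais medians. The part of the sum in their interaction was not tested. In bulk muscle, fewer cells of a type and less RNA per cell cannot be told apart.

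**Figure D2:**
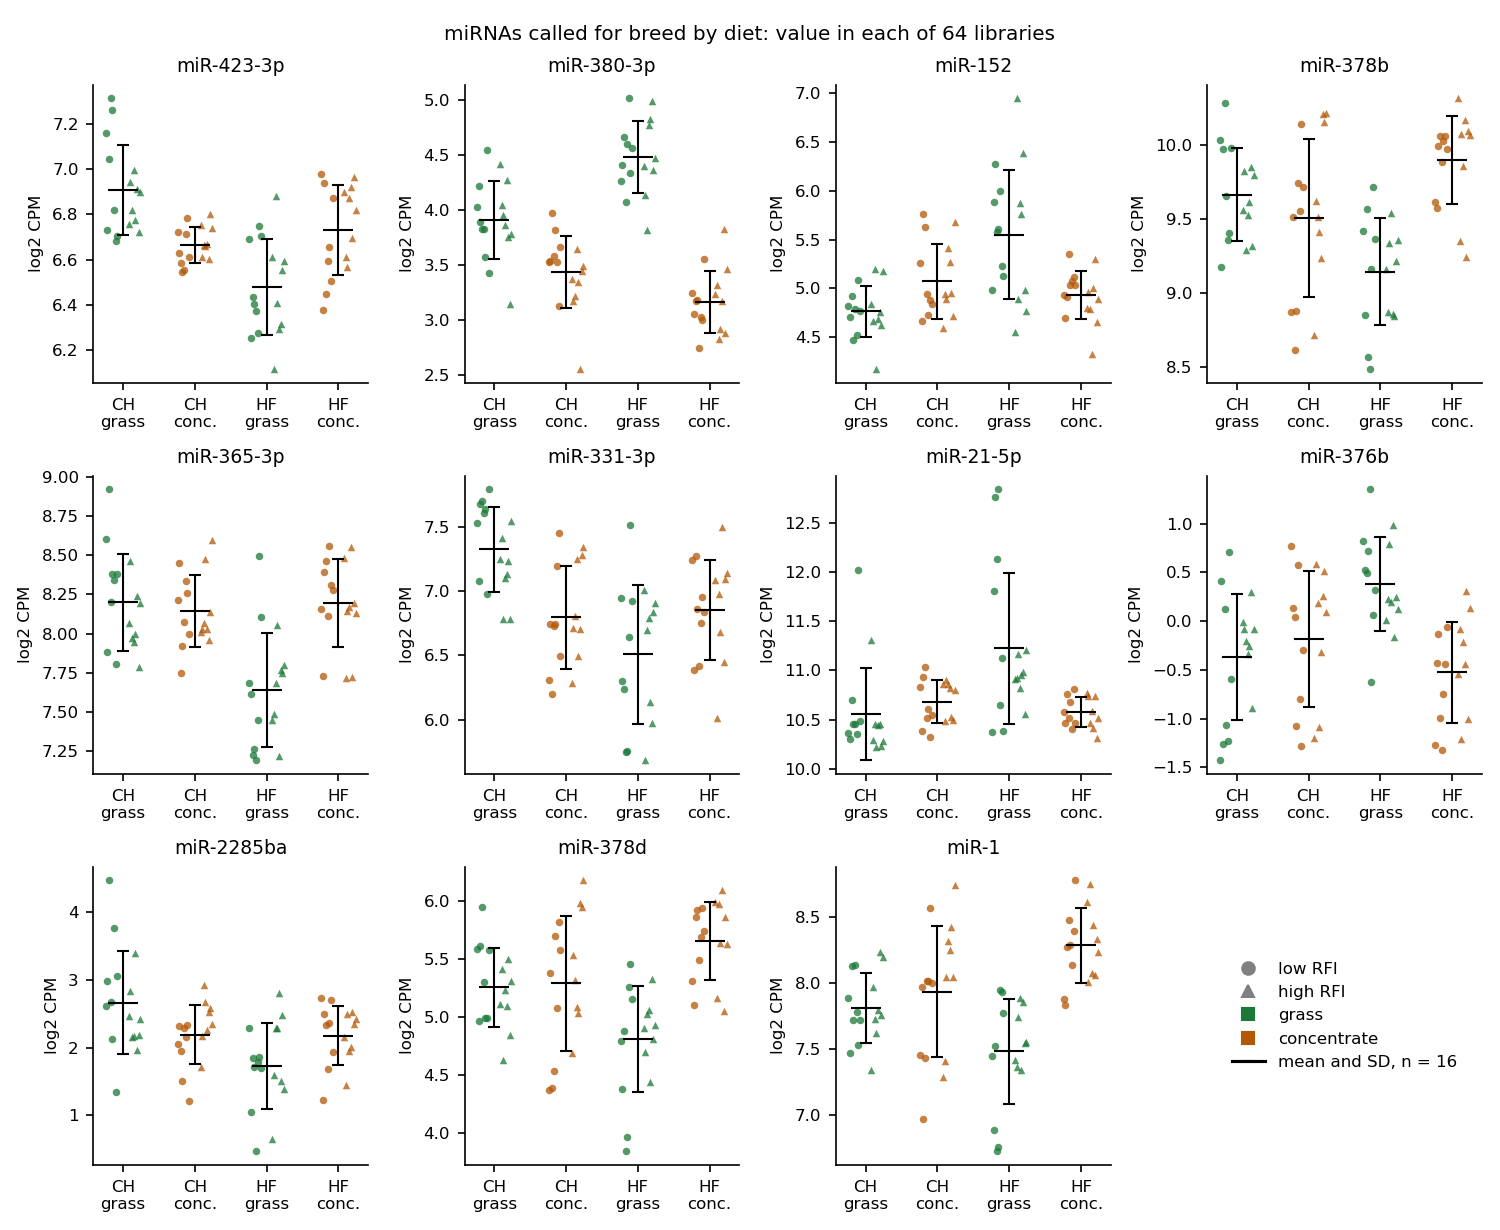
Level of the 11 called miRNAs in each of the 64 libraries (log2 CPM, vertical axis of each panel), by breed (CH Charolais, HF Holstein-Friesian) and diet, with circles for low and triangles for high RFI. Black marks give the mean and SD of 16 libraries on the log2 scale. The mean of the Holstein-Friesian grass libraries is the lowest of the 4 in 7 panels and the highest in the other 4.

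miR-423-3p had the smallest p-value and the smallest difference of the 11. In Charolais steers it spanned 103 to 159 CPM (median 116) on grass and 93.3 to 112 CPM (median 101) on concentrate. In Holstein-Friesian steers it spanned 69.2 to 118 CPM (median 85.6) on grass and 83.0 to 126 CPM (median 108) on concentrate. The direction turned with the breed: all 16 Charolais concentrate libraries lay below the Charolais grass median, and 15 of 16 Holstein-Friesian concentrate libraries lay above the Holstein-Friesian grass median. The diet difference was -0.25 ± 0.07 in Charolais (adjusted p = 0.00588) and 0.25 ± 0.07 in Holstein-Friesian steers (adjusted p = 0.00436, both edgeR). The interaction was 0.50 ± 0.10 (95% interval 0.31 to 0.70, adjusted p = 0.000667, edgeR). No other called miRNA had a diet difference that passed the test in both breeds with opposite signs. With total-count scaling the interaction was 0.37 (adjusted p = 0.574). The other arm of the same hairpin, miR-423-5p, stood at 0.45 ± 0.15 (adjusted p = 0.0725, edgeR). Its diet difference was -0.23 in Charolais and 0.23 in the dairy breed.

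miR-331-3p, known to target the growth factor receptor gene ERBB2, spanned 110.0 to 222 CPM (median 161) in Charolais steers on grass and 73.6 to 176 CPM (median 107) on concentrate. The Holstein-Friesian libraries spanned 51.3 to 183 CPM (median 102) on grass and 64.6 to 182 CPM (median 120.4) on concentrate. Charolais on grass had the highest values and the highest median, and the ranges of the other 3 sets nearly coincided. The level was 1.42-fold lower on concentrate in Charolais steers (log2 -0.50 ± 0.15, adjusted p = 0.0081 by edgeR), while the Holstein-Friesian difference was 0.30 ± 0.15 (adjusted p = 0.119, edgeR). The interaction was 0.81 ± 0.21 (adjusted p = 0.0135, edgeR). Without the later libraries of the 5 repeated steers miR-331-3p was not called.

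miR-365-3p is encoded beside members of the miR-193 family. It spanned 221 to 485 CPM (median 294) on grass and 215 to 387 CPM (median 269) on concentrate in Charolais steers. The Holstein-Friesian ranges were 146 to 360.3 CPM (median 201) and 209.8 to 377 CPM (median 290.3). Here Holstein-Friesian on grass stood below the other 3 sets, with 15 of 16 libraries below the Charolais grass median. The diet difference was 0.53 ± 0.11 in Holstein-Friesian steers (adjusted p = 8.97e-05) and -0.07 ± 0.11 in Charolais (adjusted p = 0.707, both edgeR). The interaction was 0.60 ± 0.15 (adjusted p = 0.0135, edgeR). Deviations of miR-365-3p and miR-331-3p from their group means correlated at 0.71 over the 64 libraries.

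Among the miRNAs that lay lower in the interaction, miR-21-5p and miR-152 are on the list of smooth muscle and fibroblast miRNAs. miR-21-5p is abundant in fibroblasts and rises in fibrosis. It spanned 1197 to 4141 CPM (median 1398) in Charolais steers on grass and 1279 to 2095 CPM (median 1671) on concentrate. In Holstein-Friesian steers it spanned 1329 to 7342 CPM (median 2001) on grass and 1272 to 1798 CPM (median 1494) on concentrate. The 5 highest libraries, at 3590.0 CPM or more, were low-RFI Holstein-Friesian grass replicates 2, 3, 4 and 5 and low-RFI Charolais grass replicate 2. On concentrate both breeds stayed in a narrow band. The level was 1.74-fold lower on concentrate in Holstein-Friesian steers (log2 -0.80 ± 0.16, adjusted p = 8.97e-05 by edgeR), with all 16 libraries below the grass median. In Charolais steers the difference was 0.06 ± 0.16 (adjusted p = 0.82, edgeR). The interaction was -0.86 ± 0.23 (adjusted p = 0.0177, edgeR). Leaving out 1 library moved it between -1.09, without low-RFI Charolais grass replicate 2, and -0.78, without low-RFI Holstein-Friesian grass replicate 5 (adjusted p = 0.0462).

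miR-152, of the miR-148 family and known to target the DNA methyltransferase gene DNMT1, had the largest difference among the called miRNAs. It spanned 18.0 to 36.7 CPM (median 27.2) on grass and 24.1 to 54.4 CPM (median 30.7) on concentrate in Charolais steers. The Holstein-Friesian ranges were 23.4 to 124 CPM (median 48.2) on grass and 20.2 to 40.8 CPM (median 30.8) on concentrate. The 5 highest libraries were all Holstein-Friesian on grass, of both RFI classes, and the other 3 sets overlapped. The mean fell from 52.1 ± 26.3 to 30.9 ± 5.16 CPM in Holstein-Friesian steers (SD, n = 16 each; log2 -0.75 ± 0.15, adjusted p = 0.000113 by edgeR). In Charolais steers the difference was 0.33 ± 0.15 (adjusted p = 0.115, edgeR), so that the interaction was -1.08 ± 0.22 (95% interval -1.52 to -0.64, adjusted p = 0.000667, edgeR). It was called under all 10 alternatives and in all 64 fits without 1 library. Of its relatives, miR-148b stood at -0.46 ± 0.19 (adjusted p = 0.159, edgeR) and the more abundant miR-148a at 0.04.

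Of the 11 smooth muscle and fibroblast miRNAs, 0 were called higher and 2 lower in the interaction by edgeR, miR-21-5p and miR-152. Of all 318, 7 (2.20%) were called higher and 4 (1.26%) lower. By DESeq2, and without the libraries of the highest TMM factors, miR-199a-3p and miR-199c were called lower too. The estimate was below 0 in 10 and the list's median was -0.37. Their breed difference had a median of 0.60 on grass, with 7 called higher in Holstein-Friesian steers, against 47 (14.8%) of all 318. On concentrate it had a median of 0.06, with 0 called by edgeR, against 5 of all 318 in either direction. Between the diets 5 of the 11 were called lower on concentrate in Holstein-Friesian steers, against 43 (13.5%) of all 318. With total-count scaling 8 of the 11 were, against 88 of all 318. In Charolais 0 were called by edgeR with TMM factors, against 66 of all 318. The contrast between the breeds itself passed for the 2 named. The list was chosen with earlier results of these data known. It holds both arms of miR-21 and several miR-199 names, so the 11 are not that many separate observations. miR-199a-3p, whose values nearly equal those listed for miR-199c so that the 2 names may share reads, stood at -0.71 ± 0.24 (adjusted p = 0.0724, edgeR). The most abundant smooth muscle miRNA, miR-143, was at -0.31 ± 0.22 (adjusted p = 0.398, edgeR), and miR-10b at 0.16 ± 0.29 (adjusted p = 0.727, edgeR). Leaving miR-10b and miR-143 aside, the other 9 summed to 2265 to 5510.4 CPM (median 2797) in Charolais steers on grass and 2831 to 4618 CPM (median 3134) on concentrate. In Holstein-Friesian steers they summed to 2572 to 9293 CPM (median 3854) and 2547 to 3981 CPM (median 3448). With miR-143 included the sum spanned 16847 to 117620.0 CPM (median 32531) in Holstein-Friesian steers on grass, and at most 43580.5 CPM in the other 3 sets. The calls of miR-21-5p and miR-152 held without the library highest in miR-143 of each Holstein-Friesian grass group. In that alternative, added after seeing the data, the interaction was -0.85 for miR-21-5p and -0.92 for miR-152. The part of these cell types in the 2 calls was not tested.

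miR-380-3p and miR-376b belong to the DLK1-DIO3 imprinted cluster, a large group of maternally expressed miRNAs tied to growth and muscle mass. miR-380-3p spanned 8.86 to 23.4 CPM (median 14.7) in Charolais steers on grass and 5.86 to 15.7 CPM (median 11.4) on concentrate. In Holstein-Friesian steers it spanned 14.1 to 32.4 CPM (median 21.8) on grass and 6.69 to 14.2 CPM (median 9.01) on concentrate. The lowest Holstein-Friesian grass library, at 14.1 CPM, was level with the highest concentrate library of the breed, at 14.2 CPM, and the Charolais diets overlapped over much of their range. Both breeds were lower on concentrate, by 1.41-fold in Charolais (log2 -0.49 ± 0.12, adjusted p = 0.00136 by edgeR) and 2.50-fold in Holstein-Friesian steers (log2 -1.32 ± 0.12, adjusted p = 2.39e-14 by edgeR). The interaction was -0.83 ± 0.16 (95% interval -1.16 to -0.50, adjusted p = 0.000667, edgeR). The breed difference was 0.56 ± 0.11 on grass (adjusted p = 0.000376) and -0.27 ± 0.12 on concentrate (adjusted p = 0.257, both edgeR).

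miR-376b was scarce, at 0.983 CPM on average. It spanned 0.371 to 1.64 CPM (median 0.855) on grass and 0.411 to 1.70 CPM (median 1.05) on concentrate in Charolais steers, and 0.648 to 2.56 CPM (median 1.22) and 0.401 to 1.24 CPM (median 0.737) in Holstein-Friesian steers. Here 15 of 16 Holstein-Friesian concentrate libraries were below the grass median, while the Charolais diets coincided. The interaction was -1.06 ± 0.29 (adjusted p = 0.0179, edgeR). It was not called without the filter on low counts, or without the later libraries of the 5 repeated steers.

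Of the 58 names from the cluster, 26 were tested, and these 2 were called lower, against 4 (1.26%) of all 318. With total-count scaling 0 of the 26 were called, against 1 of all 318. Without the filter on low counts 1 was, and with the animal as a random block 3 were. The interaction was below 0 in 25 of the 26, with a median of -0.34, and the count of 25 was the same under all 10 alternatives. The cluster's median diet difference was -0.59 in Charolais, with 15 members called lower, against 36 (11.3%) of all 318. It was -0.87 in Holstein-Friesian steers, with 24 called lower, against 43 of all 318. The breeds differed on grass in 13 members, all higher in Holstein-Friesian, against 47 of all 318. On concentrate 0 were called by edgeR, against 5 of all 318 in either direction. Its most abundant member, miR-127, stood at -0.31 ± 0.17 (adjusted p = 0.31, edgeR), and miR-411a and miR-381 at -0.22 and -0.14. miR-410 (-0.49), miR-432 (-0.52) and miR-411c-3p (-1.28, at 0.659 CPM) did not pass by edgeR with all 64 libraries. miR-411c-3p was called with the animal as a random block (adjusted p = 0.0454, limma-voom), and miR-432 without the later libraries of the 5 repeated steers (adjusted p = 0.0497, edgeR). The members are co-expressed, so their shared sign is not that many separate observations.

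miR-2285ba, of a large ruminant family of miRNAs, was highest in Charolais steers on grass. It spanned 2.53 to 22.3 CPM (median 5.84) there and 2.31 to 7.59 CPM (median 4.84) on concentrate. In Holstein-Friesian steers it spanned 1.38 to 6.996 CPM (median 3.38) on grass and 2.35 to 6.65 CPM (median 5.06) on concentrate. The 2 highest values, 22.3 and 13.7 CPM, came from low-RFI Charolais grass replicates 6 and 1, and all 4 sets overlapped. The interaction was 1.01 ± 0.28 (adjusted p = 0.0239, edgeR), from a diet difference of -0.60 ± 0.20 in Charolais (adjusted p = 0.0204) and 0.41 ± 0.20 in Holstein-Friesian steers (adjusted p = 0.123, both edgeR). The call was lost when any of 6 libraries was left out: high-RFI Holstein-Friesian grass replicates 2 and 6, low-RFI Charolais concentrate replicates 1 and 6, and low-RFI Holstein-Friesian concentrate replicates 5 and 8. The estimate then stayed at 0.87 or above, with an adjusted p of at most 0.0603. Among the 41 tested members of the miR-2284 and miR-2285 family it was the only call, against 11 (3.46%) of all 318. In the family 24 estimates were above 0 and the median was 0.15.

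The interaction of the called miRNAs had the same sign in low-RFI and in high-RFI steers, which is partly fixed by their choice on the average over the classes. It was 0.53 ± 0.14 and 0.48 ± 0.14 for miR-423-3p, the most alike of the 11. It was -0.98 ± 0.31 and -1.18 ± 0.31 for miR-152, the 1 miRNA with a larger size in the high class. The widest gap was in miR-2285ba, at 1.72 ± 0.40 against 0.30 ± 0.40. A test of the difference between the classes gave 1.42 ± 0.56 for miR-2285ba (adjusted p = 0.457, edgeR), and it passed for none of the 11 by edgeR. miR-21-5p stood at -1.13 ± 0.33 and -0.60 ± 0.32.

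Over all 318 miRNAs that test called 1 (0.314%), with 33 at an unadjusted p under 0.05. This was miR-27a-5p, a scarce arm of a miRNA known from adipogenesis, named after its values were seen. Its interaction was -1.38 ± 0.40 in low-RFI and 0.87 ± 0.39 in high-RFI steers, a difference of -2.24 ± 0.56 (adjusted p = 0.0493, edgeR) at 1.61 CPM on average. The call was absent by DESeq2 and in 7 of the other 9 alternatives.

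**Figure D3:**
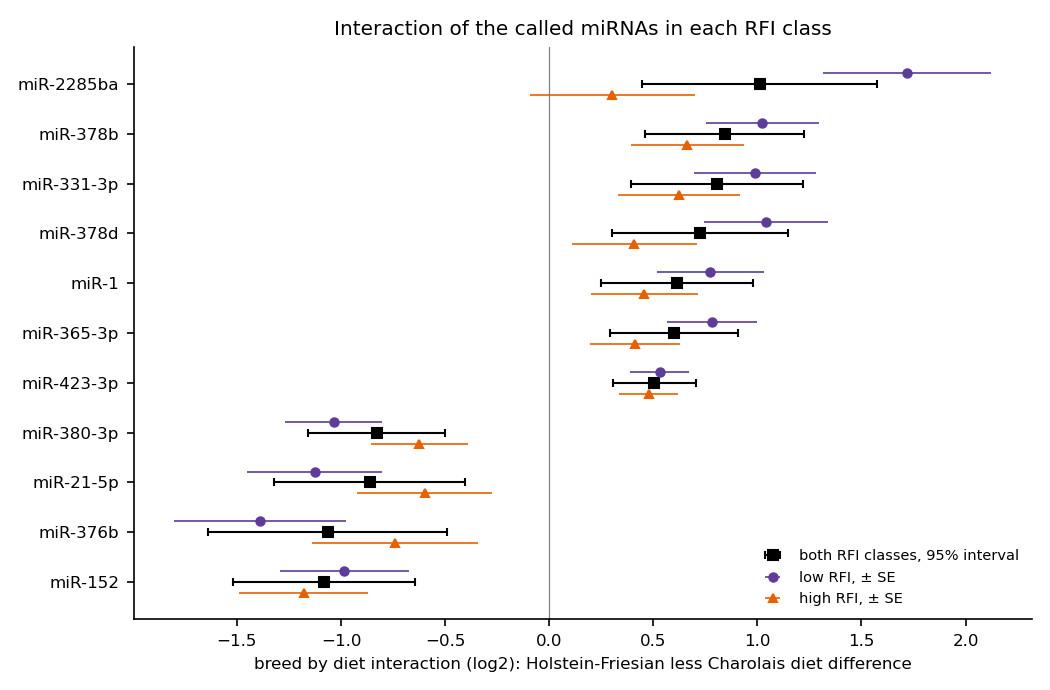
Breed by diet interaction of the 11 called miRNAs on the log2 scale (horizontal axis), with squares and 95% intervals for both RFI classes together, circles for low and triangles for high RFI with 1 SE. The miRNAs were chosen on the average of the classes, which lie on the same side of 0, and miR-2285ba shows the widest gap between them.

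The miRNAs next in order of p did not pass by edgeR with all 64 libraries. miR-188, of the X-linked miR-532 cluster, had an interaction of 0.68 ± 0.21 (adjusted p = 0.0502, edgeR). It was called by limma-voom (adjusted p = 0.0308), with the animal as a random block (adjusted p = 0.0242, limma-voom) and as a fixed block (adjusted p = 0.0486, edgeR). It was highest in Charolais steers on grass, at 7.24 to 17.4 CPM (median 12.7), against 4.03 to 12.02 CPM (median 7.58) on concentrate, and spanned 3.77 to 12.5 CPM (median 7.29) and 4.82 to 11.0 CPM (median 7.39) in Holstein-Friesian steers. All 16 libraries of Charolais on concentrate, and all 16 of Holstein-Friesian on grass, lay below the Charolais grass median. Its diet difference was -0.72 ± 0.15 in Charolais (adjusted p = 0.000241) and -0.04 ± 0.15 in Holstein-Friesian steers (adjusted p = 0.874, both edgeR). Other tested members of the cluster stood at 0.51 (miR-500), 0.64 (miR-502b), 0.13 (miR-502a) and -0.20 (miR-660). With all 64 libraries none of the 8 was called by edgeR without a block or by DESeq2. miR-188 was called with the fixed block, and miR-188 and miR-502b with the random block. With 1 library left out, edgeR called miR-188 and miR-500 in 5 of the 64 fits each and miR-502b in 2. By edgeR with all libraries 4 of the 8 had an unadjusted p under 0.05, 7 were above 0 and the median was 0.24. Their breed difference was called lower in Holstein-Friesian steers on grass in 6 of 8, against 49 (15.4%) of all 318. On concentrate it was called in 0 by edgeR, against 5 of all 318 in either direction. With total-count scaling it was called on grass in 0 of 8, against 3 of all 318 lower.

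miR-30c, of a family abundant in muscle and fat, showed 0.50 ± 0.15 (adjusted p = 0.0502, edgeR). It was called by limma-voom (adjusted p = 0.0378) and with the animal as a random block (adjusted p = 0.0220, limma-voom), as was miR-361 with that block. miR-30c was 1.33-fold higher on concentrate in Holstein-Friesian steers (adjusted p = 0.00239, edgeR) and stood at -0.08 ± 0.11 in Charolais. miR-361 (0.34, adjusted p = 0.064, edgeR), miR-22-5p (0.44) and miR-320a (0.33) followed on the same side. On the other side were miR-2284w (-1.08), miR-6524 (-0.81), miR-708 (-1.05), miR-106b (-0.82) and miR-224 (-0.72). Among miRNAs averaging 10 CPM or more, the lowest estimate of all belonged to the erythrocyte miRNA miR-144, at -1.17 ± 0.74 (adjusted p = 0.351, edgeR). miR-204 (-0.95 ± 0.40), miR-19a (-0.93 ± 0.53) and the erythrocyte miRNA miR-451 (-0.92 ± 0.73) were also among the 6 lowest and did not pass. These estimates carried SEs from 0.40 to 0.74, well above the median of 0.23. The uncalled miRNAs among the 6 highest were miR-502b and miR-193a-5p (0.61).

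**Figure D4:**
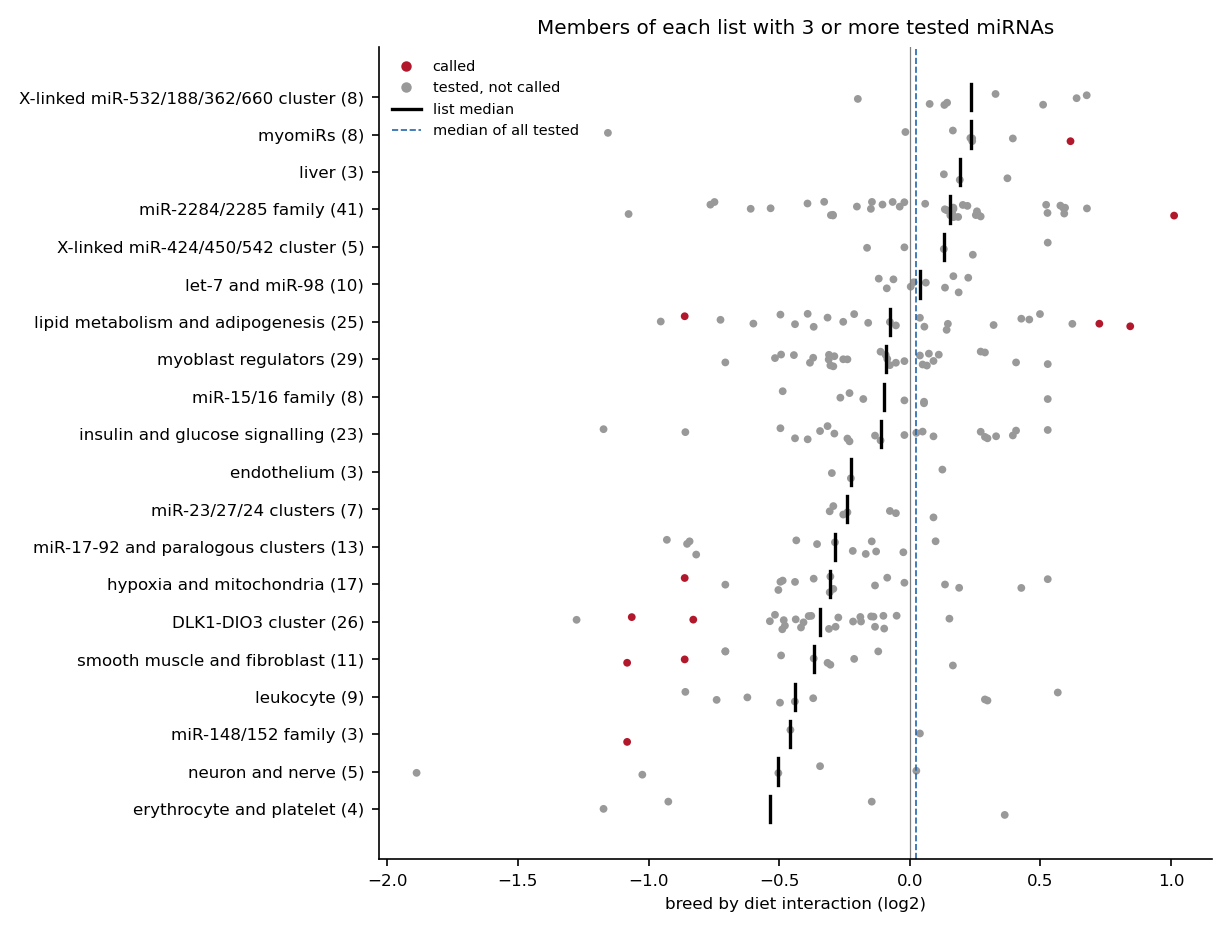
Breed by diet interaction on the log2 scale (horizontal axis) of the tested members of each list with 3 or more of them, with the number tested in parentheses, called members in red and a black bar at the list median. The dashed line marks the median of all 318 miRNAs, 0.02; medians run from -0.54 for the erythrocyte and platelet list to 0.24 for the myomiRs and the X-linked miR-532 cluster.

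Several lists had 0 called members in the interaction by edgeR, against 11 (3.46%) of all 318. Proliferation-linked miRNAs of the miR-17-92 clusters had 12 of 13 members below 0 and a median of -0.29, with estimates of -0.85 for miR-19b, -0.43 for miR-25 and -0.22 for miR-92a. Here 7 of the 13 were called higher on concentrate in Charolais steers, against 30 (9.43%) of all 318, and 0 in Holstein-Friesian steers by edgeR, against 34 (10.7%). The medians were 0.65 and 0.15. With total-count scaling 1 of the 13 was called higher in Charolais, against 2 of all 318. In Holstein-Friesian steers 2 were called lower, against 88 of all 318 with that scaling. In 1 of the 13 the interaction had an unadjusted p under 0.05, so the counts of the breeds are not a difference that was shown. The miR-23/27/24 clusters had 6 of 7 below 0, with a median of -0.24. The let-7 family had a median of 0.04 over 10, the miR-15/16 family -0.10 over 8, and the X-linked miR-424/450 cluster 0.13 over 5. Regulators of myoblasts had a median of -0.09 over 29 and insulin and glucose signalling -0.11 over 23.

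Lists of lipid metabolism and of hypoxia held called members already described. Of 25 lipid miRNAs, 2 were called higher (miR-378b and miR-378d) and 1 lower (miR-21-5p), with a median of -0.08. Of all 318, 7 (2.20%) were called higher and 4 (1.26%) lower. The hypoxia and mitochondria list had a median of -0.30, with miR-21-5p called lower among 17, against 4 of all 318.

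Lists of other cell types held no called member beside miR-21-5p and miR-152 by edgeR, against 11 (3.46%) of all 318. The leukocyte list had 0 of 9 called by edgeR, with 1 at an unadjusted p under 0.05 and a median of -0.44. Its most abundant member, miR-142-5p, was at -0.74 ± 0.44. The erythrocyte and platelet list, 4 of 7 tested, had 0 called by edgeR, 0 at an unadjusted p under 0.05 and a median of -0.54. Its summed level spanned 302 to 10430.4 CPM (median 1697) in Charolais steers on grass and 683 to 49577 CPM (median 4795) on concentrate, and 782 to 11364 CPM (median 2692) and 827 to 19498 CPM (median 5329) in Holstein-Friesian steers. These ranges overlapped throughout. Endothelial miRNAs had a median of -0.23 over 3, liver miRNAs 0.19 over 3 and nerve miRNAs -0.50 over 5, each with 0 called by edgeR. At an unadjusted p under 0.05 there were 1, 0 and 1 of these. The 1 tested epithelial miRNA, miR-141, stood at -0.09.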

How the data were processed

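The 64 libraries were grouped by breed, RFI class and diet from the labels. Unnormalized estimated counts were deposited by the authors in 1 table of 1030 miRNA names, where 0 columns lacked a sample. The build ARS-UCD 1.2 and the tools cutadapt 2.6, FastQC 0.11.8, edgeR 3.5 and R 3.4 are named in the submitters' processing notes, without roles. For the aligner, the counter and the selection of small RNA the name was not given in the sources used here. RNA and libraries were made with the Qiagen RNeasy Plus Universal and Illumina TruSeq stranded kits per the labels' protocols. Fractional values (more than 0.001 from a whole number) occurred in 60 names, and for 17 of these, 9 of them tested, the divisor differed between the diets. Counts were rounded to whole numbers, and miR-2285b, with 3 empty cells, was left out.

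The test used edgeR 4.0.16 (R 4.3.3) with TMM factors, filterByExpr over 8 groups (318 names kept, those left out holding 0.00592% of the counts), a robust quasi-likelihood fit of 8 group means (56 residual degrees of freedom) and Benjamini-Hochberg adjustment within each contrast at 0.05. The script was tested on simulated data. Log2 differences are given ± SE. Correlations within groups used log2 CPM with a prior count of 2, as deviations from group means. The replicates were separate steers. The labels' animal numbers gave the pairing: libraries of the 5 repeated steers correlated at 0.288, -0.111, 0.165, 0.398 and 0.599 in their deviations, and the animal entered as a block only in alternatives.

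The 21 lists (14 of function, 7 of cell types), the members and the rule for naming miRNAs were chosen with earlier results of these data known. Named were the 24 miRNAs with the smallest p, the 6 highest and 6 lowest differences at 10 CPM or more, the 3 most abundant tested members of each list and the 5 most abundant miRNAs. Other members of a list named in the text, and single libraries, were named after their values were seen. Alternatives were DESeq2 1.42.0, limma-voom (limma 3.58.1), total-count scaling, no filter, random and fixed animal blocks, and sets of libraries or names left out, 2 of them added after seeing the data. Sequences and coordinates are not used here.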

Additional observations from a re-analysis of the deposited data

Results flagged for a closer look

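The 11 interactions are flagged because the diet difference itself was tested to differ between the breeds. On the log2 scale they were 0.50 (miR-423-3p), -0.83 (miR-380-3p), -1.08 (miR-152), 0.84 (miR-378b), 0.60 (miR-365-3p) and 0.81 (miR-331-3p). The others were -0.86 (miR-21-5p), -1.06 (miR-376b), 1.01 (miR-2285ba), 0.73 (miR-378d) and 0.62 (miR-1). For miR-27a-5p the interaction differed between the RFI classes by -2.24.

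A single library stood far from the other 7 of its group in 3 of 88 groups tested, where chance gives about 1 in 20. These were miR-380-3p in high-RFI Charolais concentrate replicate 8, the lowest at 5.86 CPM, and miR-21-5p in low-RFI and in high-RFI Charolais grass replicate 2, the highest at 4141 and 2530 CPM.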

How the results depend on the processing

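The interaction called 11 miRNAs. With total-count scaling 1 was called, and without the later libraries of the 5 repeated steers 7 were (miR-1, miR-2285ba, miR-331-3p, miR-376b and miR-378d lost, miR-432 gained). Other alternatives called between 9 and 16: 12 with DESeq2 (miR-1 and miR-378d lost, miR-199a-3p, miR-199c and miR-708 gained), 13 with limma-voom, 10 without the filter (miR-1, miR-376b and miR-378d lost, miR-2284k and miR-2313-3p gained), 9 without the names whose divisor differed (miR-1 and miR-378d lost), 16 with the animal as a random replicate block and 12 with it as a fixed block. Either block kept the 11. The fixed block gained miR-188, and the random block miR-188, miR-30c, miR-361, miR-411c-3p and miR-502b. The 2 alternatives added after seeing the data called 11 (without the libraries of the highest TMM factors) and 9 (without those highest in miR-143), and 9 of the 11 were shared with each, miR-1 and miR-378d being lost. Leaving out 1 library gave 8 to 29 calls: 29 without low-RFI Holstein-Friesian grass replicate 7, 23 without high-RFI Holstein-Friesian concentrate replicate 6 and 19 without low-RFI Charolais concentrate replicate 7. There were 17 without low-RFI Charolais grass replicate 5, high-RFI Holstein-Friesian grass replicate 4 or 7, or low-RFI Charolais concentrate replicate 4.

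The test between RFI classes called 1 miRNA, and 0 with DESeq2, total-count scaling, no filter, the fixed block, or any of the sets of libraries or names left out; leaving out 1 library gave 0 to 1. With total-count scaling the calls were 42 for diet in Charolais (2 higher, 40 lower, against 30 and 36), 94 for diet in Holstein-Friesian steers (6 and 88, against 34 and 43), 50 for breed on grass (47 and 3, against 47 and 49) and 2 for breed on concentrate. Breed on concentrate had 3 calls with limma-voom and with the random block, and 1 without those later libraries. Leaving out 1 library gave 40 to 85, 75 to 108, 88 to 113 and 3 to 8 calls in these 4 comparisons, the 40 without high-RFI Charolais concentrate replicate 3. No estimate of a named miRNA that was called reversed its sign under any setting run. The cause of these changes was not tested.

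With 16 libraries in a set and a median SE of 0.23, small interactions were not detectable, and miRNAs near 1 CPM rest on few counts. The diets were given in sequence, so diet, phase and age cannot be told apart. Reads may be split between near-identical names.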
